A study of Mus musculus with 36 samples.

Results

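The messenger RNA levels of 5 homeobox genes, Meis1, Meis2, Meis3, Pbx2 and Pbx3, were followed through mouse heart samples that differ in age, injury and culture. The genes were chosen by symbol, as regulators linked to the arrest of the cardiomyocyte cell cycle after birth. All 5 were found among 36128 gene rows under 32750 symbols, with 1 row each, and all 5 passed the filter on low values (at least 1 FPKM in at least 2 libraries of the fit) in all 16 comparisons. RNA sequencing covered 36 libraries in 16 groups, all from mice of the CD-1 background. Whole ventricular myocardium was sampled at postnatal day 0 (P0), P4, P7 and in adults. It was also sampled 1 day and 7 days after resection of heart tissue and after sham surgery, with 2 libraries in each of these 8 groups. Cardiomyocytes isolated on Miltenyi columns were sampled at P4 and P0 and 7 days after resection and after sham surgery, with 3 libraries in each group. Adult cardiomyocytes that were dissociated and kept as explants were sampled at 0, 24, 48 and 72 h, with 2 libraries at each time. The labels give cardiomyocyte as the cell type of every library, the ventricle included, and do not say that replicates came from separate animals, so p-values measure the spread between these libraries only.

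Meis and Pbx proteins are transcription factors of the TALE homeobox class, which carry a loop of extra residues in the DNA-binding homeodomain. Meis proteins bind DNA together with Pbx proteins, and both serve as cofactors of Hox proteins. In mouse heart, loss of Meis1 is known to prolong the period in which cardiomyocytes divide after birth, and Meis1 is known to act there on the cell-cycle inhibitor genes Cdkn1a, Cdkn2a and Cdkn2b. Pbx2 and Pbx3 are among the partners with which Meis proteins can bind DNA.

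The part of each coding sequence that encodes the DNA-contacting end of the homeodomain shows how the members differ. It is given 5′ to 3′ on the coding strand from GENCODE transcripts, 63 bases each, with the 25 positions that are identical in all 5 genes in capitals.
Meis1: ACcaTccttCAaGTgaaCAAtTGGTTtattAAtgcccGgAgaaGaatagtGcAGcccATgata
Meis2: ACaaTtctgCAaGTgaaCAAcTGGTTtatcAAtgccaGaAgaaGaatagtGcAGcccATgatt
Meis3: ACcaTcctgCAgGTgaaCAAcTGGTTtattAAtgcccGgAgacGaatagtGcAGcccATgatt
Pbx2: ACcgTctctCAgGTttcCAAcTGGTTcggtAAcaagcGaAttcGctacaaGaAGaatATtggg
Pbx3: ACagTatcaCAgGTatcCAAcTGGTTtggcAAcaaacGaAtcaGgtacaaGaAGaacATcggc
These stretches run across an exon junction, between exons 9 and 10 of the 3 Meis genes and exons 5 and 6 of both Pbx genes, so their genomic spans on GRCm38 hold an intron. The spans are chr11:18885612-18905711 (minus strand) for Meis1, chr2:115868764-115921694 (minus) for Meis2, chr7:16183845-16184077 (plus) for Meis3, chr17:34594706-34594851 (plus) for Pbx2 and chr2:34178292-34204791 (minus) for Pbx3. Meis1 and Meis3 matched at 92.1% of positions, Meis1 and Meis2 at 87.3%, and Pbx2 and Pbx3 at 79.4%, whereas a Meis gene and a Pbx gene matched at 42.9% to 50.8%. Despite this likeness, no window of 50 or 75 bases was shared between transcripts of different genes of the family. In that annotation 227 of 3640 exonic bases of Pbx2 also lie in exons of Gpsm3 on the same strand, while of 10532 in Meis1, 896 lie in an antisense gene, Gm16140, and 1029 in Gm37818, whose level was not used here. Gpsm3 and Gm16140 reached at most 2.29 and 0.947 FPKM in any library, and how the authors counted the overlap is not given in the sources used here.

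In the deposited table, which uses mm9, the genes lie at chr11:18780432-18918961 (Meis1, ENSMUSG00000020160), chr2:115688799-115891575 (Meis2, ENSMUSG00000027210), chr7:16760728-16771853 (Meis3, ENSMUSG00000041420), chr17:34729207-34734345 (Pbx2, ENSMUSG00000034673) and chr2:34026976-34228660 (Pbx3, ENSMUSG00000038718). Levels are FPKM, fragments scaled to transcript length and library size, so they can be set side by side between genes. Meis1 was the most abundant member by the median over 36 libraries (14.6 FPKM), ahead of Meis2 (9.84 FPKM), Pbx2 (7.17 FPKM), Pbx3 (5.69 FPKM) and Meis3 (1.24 FPKM). Meis3 reached 1 FPKM in 24 of 36 libraries, and the other members in all 36. No member was listed at 0 in any library, in a table where the cardiomyocyte gene Myh6 is listed at 0 in 1 library. Depth per library is unknown, since FPKM do not form whole multiples of a read. Between 10454 and 13134 gene rows per library reached 1 FPKM. The least alike libraries were isolated-cell resection replicates 3 and 2, with Spearman correlations of 0.920 and 0.924 with their own group.

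**Figure D1:**
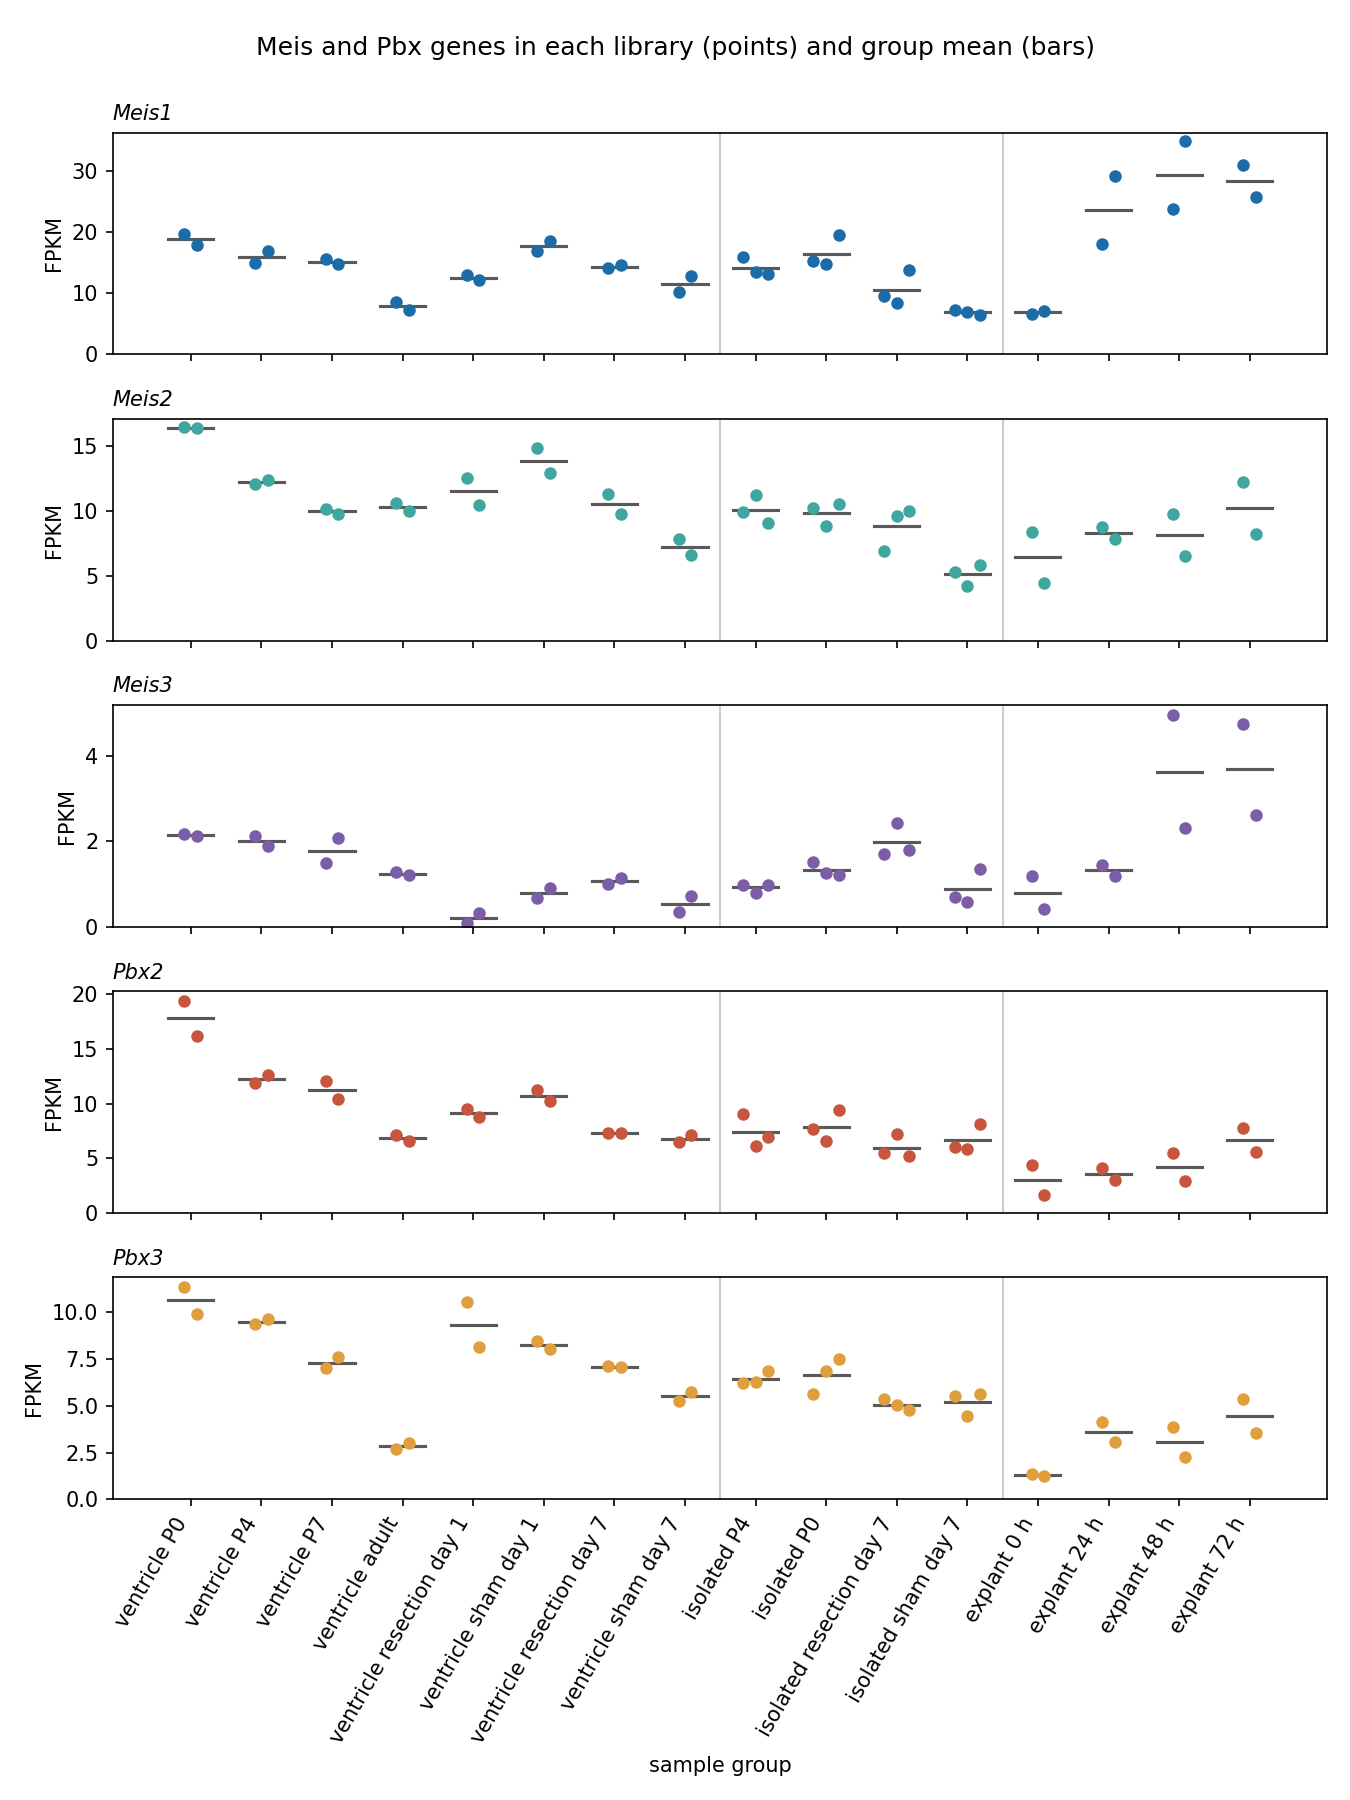
FPKM of each member (rows) in every library (points) with the group mean (bars), by sample group; grey lines divide ventricle, isolated cells and explants. Meis1 was highest in explants at 48 h (mean 29.3 FPKM) and Meis3 at 72 h (mean 3.69 FPKM), while Meis2, Pbx2 and Pbx3 were highest in ventricle at P0 (means 16.4, 17.8 and 10.6 FPKM).

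The members did not share 1 order of groups. Meis1 ranged over group means from 29.3 FPKM in explants at 48 h to 6.89 FPKM in isolated cells after sham surgery, a ratio of 4.26. Its explant groups at 24, 48 and 72 h overlapped each other, and its lowest libraries, isolated sham and explants at 0 h, overlapped too. Meis2 stood highest in ventricle at P0 (16.4 FPKM), apart from the next group, and lowest in isolated sham cells (5.11 FPKM). Below ventricle at P0 and 1 day after sham, each group of Meis2 overlapped the next. Pbx2 and Pbx3 were highest in ventricle at P0, where neither overlapped its P4 libraries, and lowest in explants at 0 h (3.06 and 1.29 FPKM). Meis3 ranged from 3.69 FPKM in explants at 72 h to 0.214 FPKM in ventricle 1 day after resection.

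The comparison of ages in whole ventricle asks how the genes stand as the heart leaves its neonatal state. In adults all 5 members were lower than at P0, and the calls of 3 of them, Meis1, Pbx2 and Pbx3, held under both other scalings that were run. Meis1 had 19.7 and 17.9 FPKM at P0, 14.9 and 17.0 FPKM at P4, 15.6 and 14.8 FPKM at P7, and 8.54 and 7.32 FPKM in adults. Both adult libraries lay below every younger one, and those of P4 and P7 overlapped. Pbx3 had 11.4 and 9.91 FPKM at P0, 9.36 and 9.62 FPKM at P4, 7.02 and 7.60 FPKM at P7, and 2.67 and 3.0 FPKM in adults, and no 2 of its ages overlapped. Pbx2 had 19.4 and 16.2 FPKM at P0, 11.9 and 12.6 FPKM at P4, 12.1 and 10.4 FPKM at P7, and 7.09 and 6.54 FPKM in adults, with P4 and P7 overlapping. Meis2 had 16.5 and 16.3 FPKM at P0, 12.03 and 12.3 FPKM at P4, 10.2 and 9.74 FPKM at P7, and 10.6 and 9.99 FPKM in adults. Its lower level was thus in place at P7, and the adult and P7 libraries overlapped. Meis3 had 2.17 and 2.13 FPKM at P0, 2.14 and 1.89 FPKM at P4, 1.49 and 2.07 FPKM at P7, and 1.28 and 1.21 FPKM in adults. Its adult libraries lay below all younger ones, which overlapped from P0 to P4 and from P4 to P7.

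Differences were tested with limma on log2(FPKM + 1), a scale that understates the change of low genes such as Meis3, and genes passed at an adjusted p under 0.05, with Benjamini-Hochberg adjustment over all genes tested. Adults against P0 gave 5 of 5 members lower, in a comparison where 43.6% of 14306 tested genes were called lower and 13.4% higher. The median of all tested genes was itself shifted by -0.36 on the log2 scale, and the members' differences are to be read against it. Libraries were also brought to a common scale by median-of-ratios scaling and by quantile normalization, and paired values follow that order. Of all genes called, 23.4% were higher in adults as deposited, and 51.1% and 47.6% after these scalings. Pbx3 fell by 1.599 ± 0.13 (SE, adjusted p = 9.95e-07), Pbx2 by 1.26 ± 0.13 (adjusted p = 4.65e-06) and Meis1 by 1.15 ± 0.13 (adjusted p = 1.53e-05). Meis2 fell by 0.62 (adjusted p = 0.00133) and Meis3 by 0.49 (adjusted p = 0.0248), but neither passed after median-of-ratios scaling (-0.21 and -0.198, adjusted p = 0.204 and 0.291) or quantile normalization (-0.304 and -0.105, adjusted p = 0.0704 and 0.602), where both still lay below 0. Meis3 also did not pass when either adult or either P0 library was left out (differences from -0.51 to -0.46, adjusted p from 0.0692 to 0.0997), with no filter on low values (adjusted p = 0.0552), with a pseudocount of 0.1 (-0.74, adjusted p = 0.12) or in a single fit over all libraries (adjusted p = 0.12). Against P7, the adult ventricle was lower in 3 of 5 members (29.8% of all genes were lower and 10.7% higher). These were Pbx3 (-1.12), Meis1 (-0.86) and Pbx2 (-0.65), which passed under both other scalings as well, although Pbx2 did not in the single fit (adjusted p = 0.0775). The higher share of calls was 26.4% as deposited and 49.5% and 48.3% after scaling. Meis2 differed between adults and P7 by 0.05 (95% interval -0.23 to 0.33).

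At P7 against P0, 3 of 5 members were lower, beside 8.21% of all genes lower and 4.35% higher and a median shift of -0.14. Of these calls 34.6% were higher as deposited, and 63.7% and 54.8% after scaling. Meis2 fell by 0.67 ± 0.13 (SE, adjusted p = 0.00547), Pbx2 by 0.61 ± 0.13 (adjusted p = 0.00791) and Pbx3 by 0.48 ± 0.13 (adjusted p = 0.0319). Meis1 differed by -0.29 (95% interval -0.58 to -0.00, adjusted p = 0.172). Pbx3 did not pass after median-of-ratios scaling (-0.31, adjusted p = 0.187) or quantile normalization (-0.36, adjusted p = 0.106). It did not pass either without P0 replicate 1 (-0.39, adjusted p = 0.186), P7 replicate 1 (-0.43, adjusted p = 0.198) or P7 replicate 2 (-0.53, adjusted p = 0.0941). Pbx2 was lost without P0 replicate 1 (-0.49, adjusted p = 0.0740) and without P7 replicate 2 (-0.51, adjusted p = 0.0789). None of the 3 passed in the single fit over all libraries (adjusted p from 0.113 to 0.247), and Pbx3 did not when P7 and P0 were fitted alone (adjusted p = 0.0640). Epicardial markers were lower at P7 in 4 of 5 tested (median -0.855), with sums of 37.2 to 37.7 FPKM at P7 and 48.2 to 58.4 FPKM at P0. Atrial markers were lower in 3 of 4 (median -3.82), with sums of 82.7 to 167 FPKM at P7 and 355 to 1259 FPKM at P0. Fibroblast markers were higher in 3 of 7 tested, erythroid in 3 of 5 and macrophage in 1 of 5, and smooth muscle and pericyte markers were higher in 3 of 6 and lower in 1. The part of these cells in the members' differences was not tested. At P4 against P0 none of the 5 passed in limma, while Meis2 (-0.40) and Pbx2 (-0.50) had an unadjusted p of 0.00884 and 0.00169. The comparisons of P4, P7 and adults with P0 share the P0 libraries. Over all genes, 0.769% were lower and 0.58% higher at P4, or 193 genes, of which 43% were higher, and 57.5% and 52.9% after scaling. An unadjusted p under 0.05 was reached by 1773 genes.

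**Figure D2:**
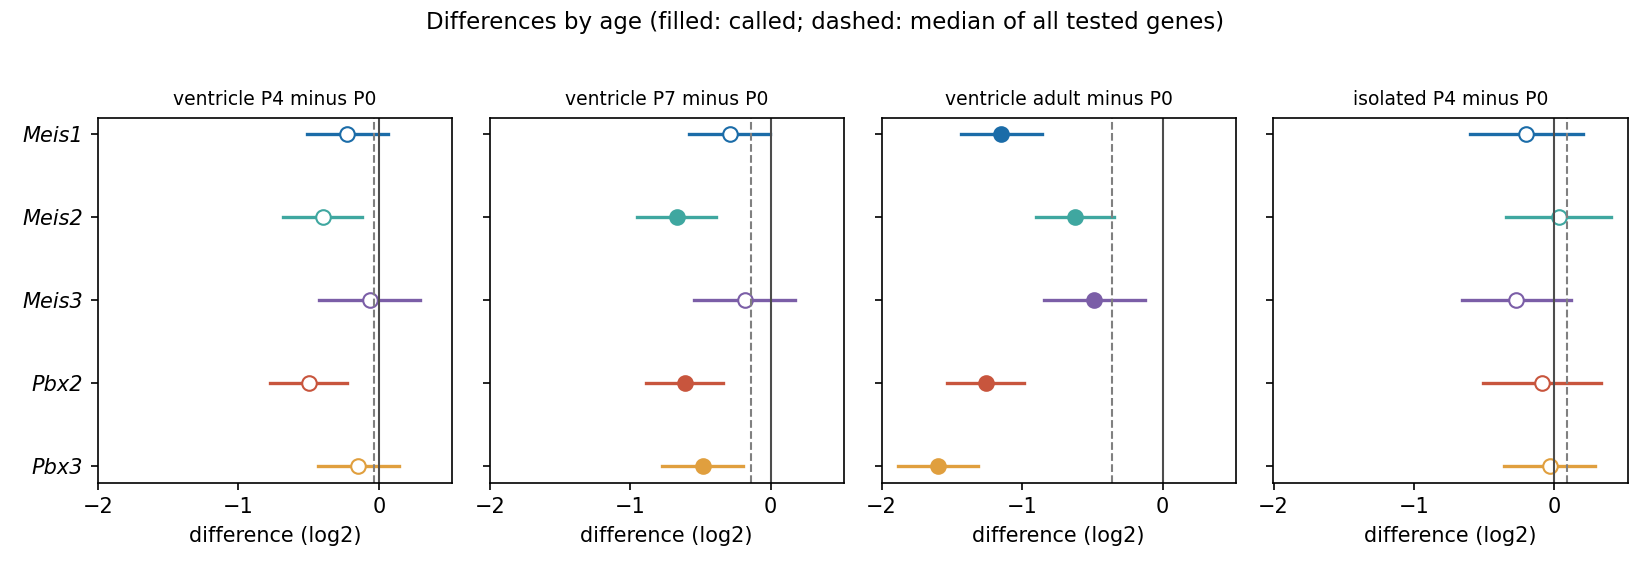
Fitted log2 differences (x axes) of the 5 members (rows) with 95% intervals for 3 ventricle ages and for isolated cells at P4, each minus P0; filled points were called and dashed lines mark the median of all tested genes. In adults Pbx3, Pbx2 and Meis1 lay farthest to the left (-1.599, -1.26 and -1.15), and at P4 no point was filled.

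Other genes of the TALE class moved beside the members. Of 13 listed, 10 were tested in ventricle. In adults 9 were lower and 1 higher than at P0, with a median of -0.99. The largest decreases were in Tgif2 (-2.16), a repressor, and in Irx2 (-1.40) and Irx4 (-1.38), Iroquois genes of the ventricle. Pknox2, a close relative of the Meis genes, rose by 1.58, with 5.33 ± 0.431 FPKM in adults and 1.13 ± 0.308 FPKM at P0 (SD, n = 2 each), and is the gene that moved against the class. After median-of-ratios scaling 7 of the 10 were lower and 1 higher, and quantile normalization gave 6 lower and 1 higher. At P7, 4 of the 10 were lower, led by Irx2 (-1.67), Irx4 (-1.09) and Irx1 (-1.04), and none was higher.

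Genes linked to Meis1 by earlier work, among them its target inhibitors, did not fall as a group. Of 10, 7 were tested in ventricle, and in adults the hypoxia-response factor gene Epas1 rose (1.04) and its relative Hif1a fell (-1.32). Both other scalings kept 1 lower and gave 3 and 2 higher. Cdkn1a, the gene of the cell-cycle inhibitor p21 with no call in either age comparison of adults, averaged 15.3 ± 2.95 FPKM in adults and 11.4 ± 0.327 FPKM at P0 (SD, n = 2 each). Cdkn2a, Cdkn2b and Hoxb13, a Hox partner of Meis1 in mouse heart, were below the filter in ventricle, where the mean of Hoxb13 was at most 0.0419 FPKM in any group. All 10 cell-cycle genes were lower in adults, with a median of -2.89, led by Ccna2 (-4.59), Top2a (-4.48) and Cdk1 (-4.15), and 3 of 10 were lower at P7. Summed fibroblast markers were 382 to 399 FPKM in adults and 936 to 1189 FPKM at P0, where 5 of 7 tested were lower and 1 higher. Macrophage markers were 136 to 183 FPKM in adults and 27.0 to 35.5 FPKM at P0, with 5 of 5 higher. Epicardial markers were lower in 4 of 5 tested, atrial in 3 of 4 and endothelial in 2 of 6, while cardiomyocyte markers were higher in 4 of 6. In bulk samples, fewer cells of a type and less RNA per cell cannot be told apart, and the part of cell composition in the members' differences was not tested.

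In isolated cardiomyocytes the same early interval gave no call. Meis1 had 15.9, 13.5 and 13.1 FPKM at P4, against 15.2, 14.7 and 19.4 FPKM at P0. Meis2 averaged 10.1 ± 1.06 FPKM at P4 and 9.82 ± 0.897 FPKM at P0, and Pbx2 7.38 ± 1.47 FPKM at P4 and 7.90 ± 1.45 FPKM at P0 (SD, n = 3 each). Libraries of the 2 ages overlapped for every member except Meis3, which had 0.794 to 0.991 FPKM at P4 and 1.21 to 1.51 FPKM at P0. Differences lay between -0.27 (Meis3) and 0.03 (Meis2, whose sign turned under both other scalings), with 95% intervals within -0.66 and 0.41, and none passed in limma. Over all genes 0.00761% were higher and 0% lower at P4, or 1 gene of 13143, while 347 had an unadjusted p under 0.05. That gene was higher as deposited, and the other scalings called 0 and 3 genes.

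Set against whole ventricle of the same stage, isolated cells gave answers that depended on the scaling between libraries. At P0, Meis1 was at 16.5 ± 2.59 FPKM in isolated cells (n = 3) and 18.8 ± 1.27 FPKM in ventricle (n = 2), where libraries overlapped. Pbx2 was at 7.90 ± 1.45 FPKM in isolated cells and 17.8 ± 2.27 FPKM in ventricle (SD, n = 3 and 2). The isolated libraries lay wholly below for Pbx2. As deposited, Pbx2 (-1.08), Meis2 (-0.69) and Pbx3 (-0.61) were called lower in isolated cells, beside 53.7% of all genes lower, 0.708% higher and a median shift of -0.57. Of all calls 1.3% were higher as deposited, against 45.4% and 44.5% after scaling. Without ventricle P0 replicate 1, Meis2 (-0.68, adjusted p = 0.0523) and Pbx3 (-0.52, adjusted p = 0.0722) did not pass. After either other scaling none of the 5 passed, and Pbx3 turned to 0.08 and 0.09. Meis1 differed by -0.19 as deposited and turned to 0.54 and 0.50. Fibroblast markers summed to 253 to 389 FPKM in isolated cells and 936 to 1189 FPKM in ventricle, and erythroid markers to 565 to 12050 FPKM in isolated cells and 732 to 857 FPKM in ventricle, and their part was not tested.

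After sham surgery at day 7, Meis1 was at 7.34, 6.93 and 6.41 FPKM in isolated cells, against 10.2 and 12.9 FPKM in ventricle, and the groups did not overlap. It was the 1 member called lower (-0.66, adjusted p = 0.00627), beside 46.6% of all genes lower, 10.1% higher and a median shift of -0.46. The higher share of all calls was 17.8% as deposited, then 57.5% and 42.2% after scaling. Without ventricle sham replicate 2 it did not pass (-0.50, adjusted p = 0.103). After median-of-ratios scaling Meis1 differed by 0.08, and Meis3 (0.63), Pbx2 (0.68) and Pbx3 (0.62) were called higher in isolated cells. After quantile normalization Meis1 differed by -0.08, and Pbx2 (0.47) and Pbx3 (0.38) were called higher. Neither Pbx gene was called as deposited (-0.03 and -0.07). Cardiomyocyte markers summed to 3730 to 5067 FPKM in these isolated cells and to 10450 to 11070 FPKM in sham ventricle, and fibroblast markers to 191 to 1188 FPKM in isolated cells and 1095 to 1350 FPKM in ventricle. Endothelial markers went the other way, with sums of 380 to 442 FPKM in isolated cells and 245 to 292 FPKM in ventricle. None of the 6 endothelial markers tested was called. The part of these cells in the members' differences was not tested.

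Resection of heart tissue against sham surgery asks whether the genes respond to injury. At 1 day after surgery 4 of 5 members were lower in resected ventricle with no overlap, which also held for 39% of all tested genes. Meis1 had 12.9 and 12.2 FPKM after resection, against 16.8 and 18.5 FPKM after sham. Meis3 had 0.0945 and 0.333 FPKM after resection, against 0.679 and 0.905 FPKM after sham, all under 1 FPKM. Both resected libraries of each gene were the lower ones. Pbx3 was the exception, with 10.5 and 8.12 FPKM after resection, against 8.46 and 8.01 FPKM after sham. Meis1 (-0.46 ± 0.13, SE, adjusted p = 0.0462) and Meis3 (-0.57 ± 0.17, adjusted p = 0.0494) passed the threshold narrowly, beside 8.88% of all genes lower, 1.38% higher and a median shift of -0.16. Of all calls 13.5% were higher as deposited, and 40.2% and 49.4% after scaling. Neither gene passed after median-of-ratios scaling (-0.28 and -0.43) or quantile normalization (-0.23 and -0.44). Neither passed with no filter on low values (adjusted p = 0.0789 and 0.105) or in a single fit over all libraries (adjusted p = 0.278 and 0.239), and Meis1 did not when both groups were fitted alone (adjusted p = 0.271). With a pseudocount of 0.1 the difference of Meis3 was -1.61. Meis1 was lost when any 1 of the 4 libraries was left out (adjusted p from 0.0815 to 0.214). Meis3 was lost without sham replicate 1 (-0.66, adjusted p = 0.0847), sham replicate 2 (-0.48, adjusted p = 0.228) or resection replicate 1 (-0.42, adjusted p = 0.266). Pbx2 averaged 9.12 ± 0.532 FPKM after resection and 10.7 ± 0.695 FPKM after sham, and Meis2 11.49 ± 1.45 FPKM after resection and 13.9 ± 1.37 FPKM after sham (SD, n = 2 each).

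Among genes linked to Meis1, 3 of 7 tested were lower 1 day after resection. These were Cdkn1a (-1.30), the calcineurin subunit gene Ppp3ca (-0.87) and Pbxip1 (-0.60), whose product binds Pbx proteins. After median-of-ratios scaling 2 of the 7 were lower, and after quantile normalization 1. Cdkn1a averaged 13.1 ± 4.62 FPKM after resection and 32.7 ± 1.71 FPKM after sham (SD, n = 2 each). Its means in unoperated ventricle were 11.4 (P0), 15.5 (P4) and 12.2 FPKM (P7), nearer to resection than to sham. Ppp3ca had 23.9 FPKM after resection and 44.8 FPKM after sham, with 27.1 to 30.7 FPKM from P0 to P7. Both genes had their highest ventricle mean in day 1 sham. Pbxip1 did not, with 14.6 FPKM after resection, 22.6 FPKM after sham and 26.1 to 35.6 FPKM from P0 to P7. Operated and unoperated ventricle libraries also differed as sets, with summed FPKM per library of 519151 to 684130 and 422576 to 502225. Between these sets, surgery cannot be told apart from library protocol or instrument, which are not given per library. Of 10 cell-cycle genes 3 were higher, Mki67 (1.02), Ccna2 (0.94) and Top2a (0.92), and 6 and 5 were higher after the other scalings. No other TALE gene passed in limma, where the median of the 10 tested was -0.13. Of 11 anterior Hox genes 2 passed the filter, and Hoxa5 was lower (-0.91). Macrophage markers summed to 28.1 to 28.3 FPKM after resection and 61.7 to 88.8 FPKM after sham. Smooth muscle and pericyte markers summed to 288 to 326 FPKM after resection and 344 to 468 FPKM after sham. Cardiomyocyte markers summed to 11400 to 12590 FPKM after resection and 10630 to 13380 FPKM after sham. Markers called lower were 2 of 5 macrophage, 2 of 6 smooth muscle and pericyte, 1 of 6 endothelial and 1 of 5 epicardial, and none was called higher. The part of these cells in the members' differences was not tested.

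At 7 days after surgery all 5 members were higher in resected ventricle with no overlap, as were 34.2% of all tested genes, and none was called. Meis2 had 11.3 and 9.77 FPKM after resection, against 7.86 and 6.61 FPKM after sham. Meis1 had 14.1 and 14.5 FPKM after resection, against 10.2 and 12.9 FPKM after sham. Pbx3 had 7.12 and 7.05 FPKM after resection, against 5.26 and 5.74 FPKM after sham. Both resected libraries were above both sham libraries in each case. The differences were 0.48 (Meis2), 0.45 (Meis3), 0.32 (Pbx3), 0.30 (Meis1) and 0.09 (Pbx2, which turned to -0.02 and -0.05 under the other scalings), with adjusted p from 0.194 to 0.849. Their unadjusted p values were 0.00258 for Meis2, 0.0183 for Meis3, 0.0334 for Pbx3 and 0.0429 for Meis1. Over all genes 0.147% were called higher and 0.00699% lower, or 22 genes in limma, with a median shift of 0.11, and 1556 genes had an unadjusted p under 0.05. Lung epithelial markers summed to 91.7 to 211 FPKM after resection and 2.47 to 24.9 FPKM after sham, and 2 of 4 were called higher. Macrophage markers summed to 98.2 to 134 FPKM after resection and 56.1 to 59.2 FPKM after sham, with no call among 5. Atrial markers summed to 394 to 480 FPKM after resection and 194 to 218 FPKM after sham, and the part of these cells in the members' levels was not tested.

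In isolated cardiomyocytes 7 days after surgery the 3 Meis genes were higher after resection with no overlap, a state shared by 8.62% of all tested genes, while both Pbx genes overlapped. Meis1 had 9.52, 8.36 and 13.8 FPKM after resection, against 7.34, 6.93 and 6.41 FPKM after sham. Meis2 had 6.86, 9.57 and 9.96 FPKM after resection, against 5.28, 4.23 and 5.80 FPKM after sham. The resected libraries of both genes lay wholly above. Meis3 had 1.71, 2.43 and 1.80 FPKM after resection, against 0.711, 0.577 and 1.35 FPKM after sham. Pbx3 averaged 5.06 ± 0.308 FPKM after resection and 5.20 ± 0.648 FPKM after sham, and Pbx2 5.97 ± 1.10 FPKM after resection and 6.68 ± 1.28 FPKM after sham (SD, n = 3 each).

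None of these differences passed over all genes in limma. Meis3 (0.68 ± 0.18, SE, adjusted p = 0.105) and Meis2 (0.68 ± 0.17, adjusted p = 0.0950) came nearest, ahead of Meis1 (0.52 ± 0.19, adjusted p = 0.251). Over all genes 1.07% were called higher and 0.00761% lower, with a median shift of 0.13. Without sham replicate 3, Meis2 (0.76, adjusted p = 0.0354) and Meis3 (0.85, adjusted p = 0.0134) passed. Without resection replicate 1, Meis2 passed (0.83, adjusted p = 0.0440), and in a single fit over all libraries it passed as well (adjusted p = 0.0296). Pbx2 (-0.14) and Pbx3 (-0.03) had 95% intervals of -0.56 to 0.28 and -0.35 to 0.29. In these isolated cells, 4 of 4 lung epithelial and 4 of 4 atrial markers were called higher. Lung markers summed to 171 to 1116 FPKM after resection and 0.435 to 2.57 FPKM after sham. Atrial markers summed to 724 to 1291 FPKM after resection and 40.9 to 90.8 FPKM after sham. Erythroid markers summed to 2933 to 40390 FPKM after resection and 2176 to 3009 FPKM after sham, endothelial markers to 15.98 to 368 FPKM after resection and 380 to 442 FPKM after sham, and fibroblast markers to 962 to 2336 FPKM after resection and 191 to 1188 FPKM after sham. Macrophage markers summed to 12.2 to 43.4 FPKM after resection and 2.88 to 9.48 FPKM after sham with no overlap, and 1 of 3 tested was called higher. Whether cells of these kinds set the Meis levels was not tested. The cell-cycle, TALE, Hox and Meis1-linked lists had no call in limma, with medians of 0.02, 0.21, 0.09 and 0.07.

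**Figure D3:**
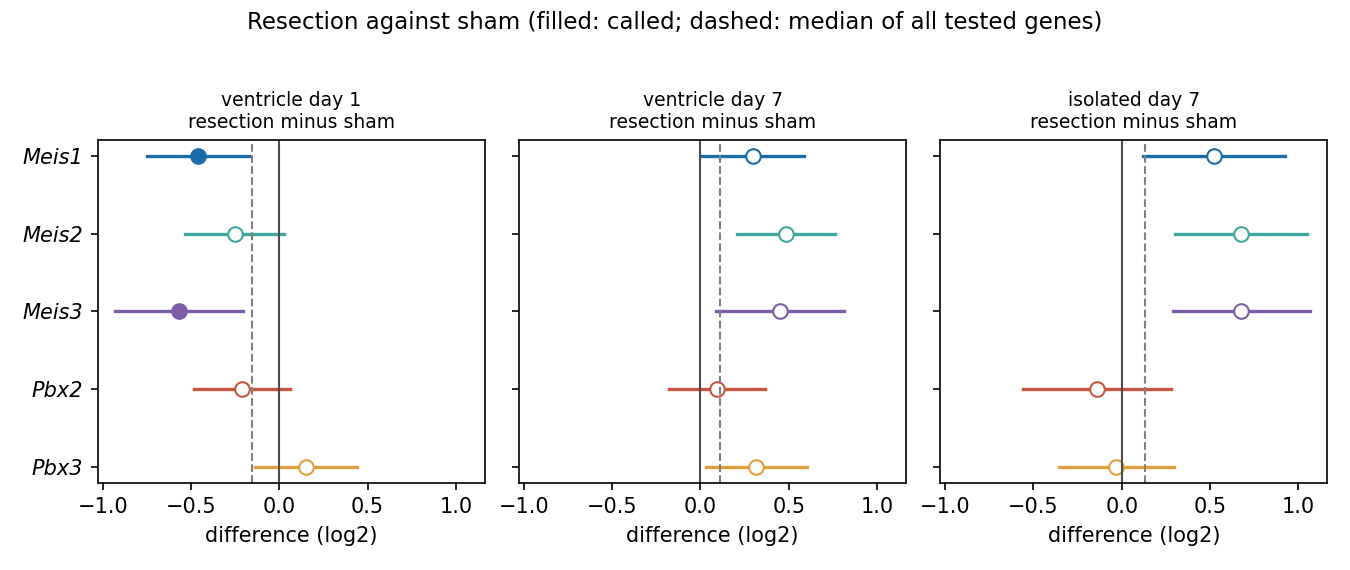
Fitted log2 differences (x axes, resection minus sham) of the 5 members (rows) with 95% intervals in ventricle at day 1 and day 7 and in isolated cells at day 7; filled points were called and dashed lines mark the median of all tested genes. Meis1 and Meis3 lay below 0 at day 1 (-0.46 and -0.57) and above 0 at day 7 in ventricle (0.30 and 0.45) and in isolated cells (0.52 and 0.68).

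The resection effects in ventricle at the 2 times were compared directly, as the day 7 difference minus the day 1 difference. All 3 Meis genes were called, Meis3 at 1.02 ± 0.24 (SE, adjusted p = 0.0290), Meis1 at 0.76 ± 0.19 (adjusted p = 0.0353) and Meis2 at 0.74 ± 0.18 (adjusted p = 0.0363). Pbx2 (0.31) and Pbx3 (0.17) did not pass. Markers of other cells were called higher in the same contrast, 3 of 4 lung epithelial (median 3.5), 2 of 5 macrophage (median 1.26) and 1 of 5 epicardial (median 0.323), and their part in the Meis differences was not tested. Over all genes 5.69% were called higher and 0.245% lower, with a median shift of 0.27, and 95.9% of calls were higher as deposited, against 75.8% and 72% after scaling. None of the 3 passed after median-of-ratios scaling (0.45 for Meis1, 0.43 for Meis2 and 0.77 for Meis3) or quantile normalization (0.38, 0.36 and 0.75 for the same genes), and the signs of these 3 stayed. With a pseudocount of 0.1 the value of Meis3 was 2.58. No member passed with no filter on low values, in a single fit over all libraries, or with the compared groups fitted alone (adjusted p from 0.0534 to 0.273 for the 3 Meis genes). Leaving out a single library ended the call of Meis1 in 5 of 8 cases, of Meis2 in 5 and of Meis3 in 5, with differences from 0.60 to 1.06 and adjusted p from 0.0531 to 0.136. The libraries whose absence ended all 3 calls were sham replicate 2 at day 1, and resection replicate 1 and sham replicate 1 at day 7. The day 7 effect in isolated cells minus that in ventricle was not called for any member in limma, with differences from -0.35 (Pbx3) to 0.23 (Meis3) and 95% intervals within -0.93 and 0.89. There 0.0401% of all genes were called higher and 0.0334% lower, or 11 genes, of which 54.5% were higher, and 85.7% and 80.6% after scaling, while 1116 had an unadjusted p under 0.05.

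The explants ask what adult cardiomyocytes express as they lose their tissue setting. Meis1 had the largest difference from 0 h on the log2(FPKM + 1) scale at all 3 later times, while as a ratio of mean FPKM it stood at 4.24 at 48 h and 4.101 at 72 h, against 4.56 and 4.63 for Meis3. Meis1 had 6.69 and 7.15 FPKM at 0 h, 18.0 and 29.2 FPKM at 24 h, 23.8 and 34.8 FPKM at 48 h, and 31.0 and 25.8 FPKM at 72 h. All later libraries lay above both at 0 h, and the 3 later times overlapped each other. Meis3 had 1.18 and 0.413 FPKM at 0 h, 1.44 and 1.201 FPKM at 24 h, 4.95 and 2.32 FPKM at 48 h, and 4.76 and 2.62 FPKM at 72 h. Its 48 h and 72 h libraries stood above all earlier ones. Pbx3 had 1.35 and 1.24 FPKM at 0 h, 4.11 and 3.06 FPKM at 24 h, 3.85 and 2.26 FPKM at 48 h, and 5.37 and 3.54 FPKM at 72 h. Pbx2 had 4.41 and 1.70 FPKM at 0 h, 4.15 and 2.99 FPKM at 24 h, 5.52 and 2.97 FPKM at 48 h, and 7.76 and 5.62 FPKM at 72 h. Meis2 had 8.38 and 4.45 FPKM at 0 h, 8.73 and 7.79 FPKM at 24 h, 9.71 and 6.55 FPKM at 48 h, and 12.2 and 8.20 FPKM at 72 h, and its 0 h libraries overlapped every later time. Replicate 1 was the higher of the pair for Meis2, Meis3, Pbx2 and Pbx3 at all 4 times.

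**Figure D4:**
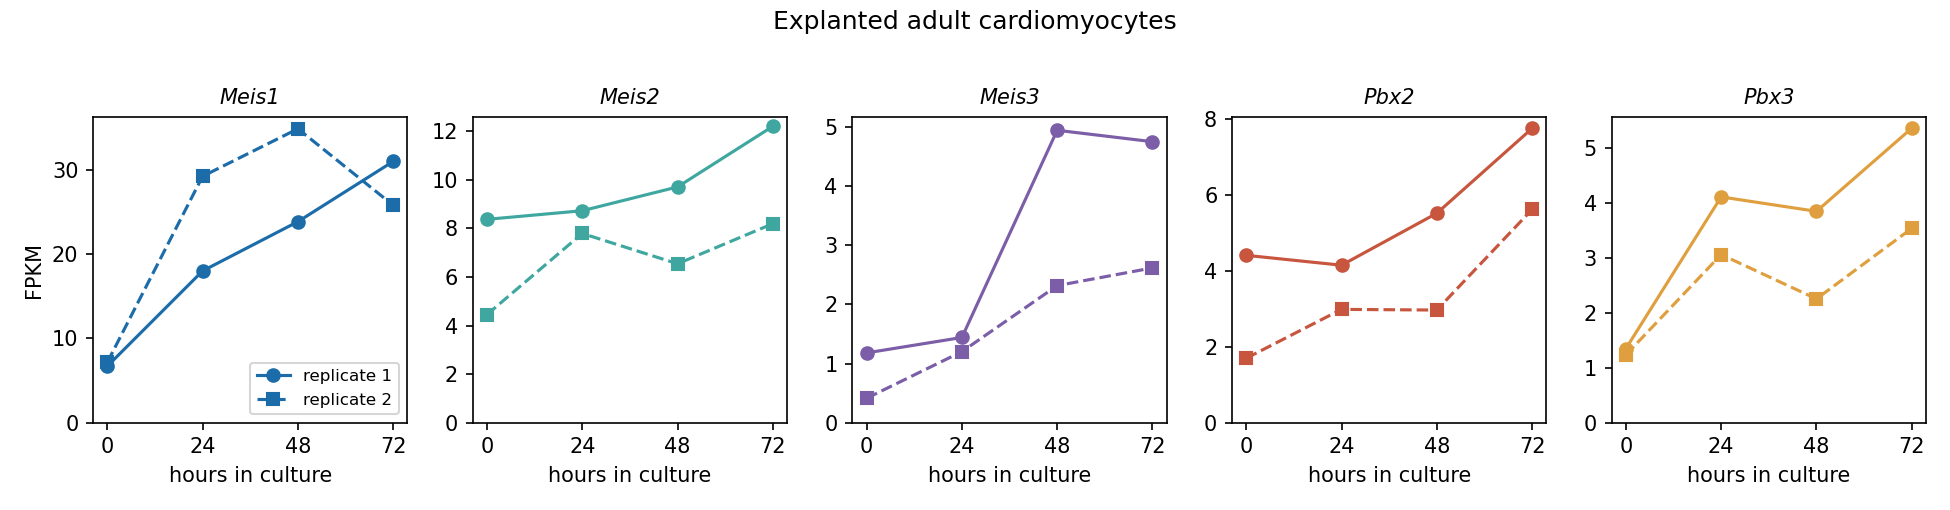
FPKM of each member (panels) against hours in culture, with a line for each of the 2 replicate numbers. Meis1 stood at 6.69 and 7.15 FPKM at 0 h and between 18.0 and 34.8 FPKM at the later times, whereas the Meis2 lines stayed between 4.45 and 12.2 FPKM.

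Meis1 rose by 1.597 ± 0.29 at 24 h (SE, adjusted p = 0.0168), by 1.91 ± 0.29 at 48 h (adjusted p = 0.00362) and by 1.89 ± 0.29 at 72 h (adjusted p = 0.00218). Meis3 rose by 1.34 ± 0.38 at 48 h (adjusted p = 0.0271) and by 1.38 ± 0.38 at 72 h (adjusted p = 0.0181), and Pbx3 by 1.23 ± 0.29 at 72 h (adjusted p = 0.00984). These made 1, 2 and 3 of 5 members, beside 15.4%, 35% and 46.8% of all genes called higher and 2.55%, 7.18% and 9.07% called lower at 24, 48 and 72 h. The median of all genes was shifted by 0.37, 0.59 and 0.76, so a member has to be read against that. Of all calls 85.8%, 83% and 83.8% were higher at 24, 48 and 72 h as deposited, while median-of-ratios scaling gave 34%, 38.4% and 44.4% and quantile normalization 49.6%, 49.2% and 51.6%. Scaled by either other method, Meis1 was called at 48 h (1.22 and 1.19) and at 72 h (1.06 and 1.05), and not at 24 h (1.10 and 1.09, adjusted p = 0.0770 and 0.0725). Meis2, Meis3, Pbx2 and Pbx3 were not called at any time under those scalings. Meis2 then lay below 0 at all 3 times (from -0.33 to -0.08) and Pbx2 at 24 h and 48 h (from -0.18 to -0.14).

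The replicate numbers paired the explant libraries, and with the replicate number as a block Pbx3 passed at 24 h (0.99, adjusted p = 0.00845) and 48 h (0.79, adjusted p = 0.0113). With the block all 5 members passed at 72 h, Pbx2 at 1.00 (adjusted p = 0.00431) and Meis2 at 0.62 (adjusted p = 0.0202) among them. The share of all genes called with the block is not given here, so this count cannot be set against it. Without the block 46.8% of all genes were called higher at 72 h. Their median shift of 0.76 was larger than the difference of Meis2. With no filter on low values, Meis1 at 24 h (adjusted p = 0.0887), Meis3 at 48 h (adjusted p = 0.167) and at 72 h (adjusted p = 0.127) and Pbx3 at 72 h (adjusted p = 0.0603) did not pass. With a pseudocount of 0.1, Meis3 differed by 2.11 at 48 h and 2.16 at 72 h, and Pbx3 passed at 24 h (1.39, adjusted p = 0.0400). Without the block, Meis1 at 24 h was lost whichever of the 4 libraries was left out (differences from 1.26 to 1.93, adjusted p from 0.0655 to 0.0942). Meis3 was lost without 0 h replicate 2, with 1.03 at 48 h (adjusted p = 0.132) and 1.07 at 72 h (adjusted p = 0.0978). It was also lost without 48 h replicate 1 (0.92, adjusted p = 0.162) and 72 h replicate 1 (1.04, adjusted p = 0.0929). Pbx2 at 72 h passed without 0 h replicate 1 (1.498, adjusted p = 0.0244). The 3 time points share their 0 h libraries, so their differences are not independent of each other.

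Of 8 tested Meis1-linked genes, 5 were higher and 1 lower at 72 h, with a median of 0.73. The median of all tested genes was 0.76, and 46.8% of them were called higher and 9.07% lower. Cdkn1a rose by 2.95, with 152 ± 17.2 FPKM at 72 h and 18.9 ± 3.21 FPKM at 0 h (SD, n = 2 each). Hif1a (1.57) and the inhibitor gene Cdkn2b (1.34) rose as well, and Epas1 fell by 1.71. Median-of-ratios scaling left 2 higher and 3 lower, and quantile normalization 2 higher and 1 lower. At 24 h, 3 were higher and 0 lower, with Cdkn1a at 1.47. At 48 h, 2 were higher and 1 lower, with Cdkn1a at 2.94. Over all genes 15.4% were called higher at 24 h and 35% at 48 h. Of 9 tested TALE genes, Tgif1 (2.29) and Pknox1 (1.68) rose and Pknox2 fell by 1.24 at 72 h. The same 3 genes were called at 48 h. The median of the 9 TALE genes was 0.43 at 72 h, against 0.76 over all genes. Both other scalings gave 2 higher and 4 lower at 72 h. Of the 3 cell-cycle genes that passed the filter, Top2a rose at 72 h (1.53). No anterior Hox gene passed the filter in explants. Cardiomyocyte markers summed to 12070 to 18730 FPKM at 0 h, 10690 to 10740 FPKM at 24 h, 5574 to 6957 FPKM at 48 h and 2521 to 3197 FPKM at 72 h, when 5 of 6 tested were lower. Macrophage markers summed to 1.43 to 2.28 FPKM at 0 h, 2.85 to 6.05 FPKM at 24 h, 20.2 to 41.5 FPKM at 48 h and 83.2 to 137 FPKM at 72 h, when 3 of 3 tested were higher. At 72 h epicardial markers were higher in 4 of 4 tested (median 1.19), with sums of 9.09 to 17.2 FPKM at 72 h and 2.395 to 3.99 FPKM at 0 h. Fibroblast markers were higher in 2 of 4, with sums of 20.4 to 23.1 FPKM at 72 h and 11.2 to 17.8 FPKM at 0 h. After median-of-ratios scaling and quantile normalization 0 and 1 epicardial markers were higher, and no fibroblast marker was. Smooth muscle and pericyte markers were lower in 2 of 4, with sums of 8.41 to 9.17 FPKM at 72 h and 74.04 to 114 FPKM at 0 h, and endothelial markers in 3 of 6. The part of these cells in the rise of Meis1 and Meis3 was not tested.

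At 0 h, the mean of each member was lower in explants than in whole adult ventricle, as deposited. Meis1 had 6.69 and 7.15 FPKM in explants, against 8.54 and 7.32 FPKM in ventricle. Pbx2 (-1.03), Pbx3 (-0.74) and Meis2 (-0.66) were called lower, beside 31.7% of all genes lower, 1.81% higher and a median shift of -0.37. Of all calls 5.4% were higher as deposited, against 47.3% and 45.2% after scaling. None of the 3 passed after either other scaling, and Meis1, at -0.17 as deposited, turned to 0.36 and 0.32. Without explant replicate 2, Meis2 (-0.27, adjusted p = 0.483) and Pbx2 (-0.53, adjusted p = 0.184) did not pass, nor did they when both groups were fitted alone (adjusted p = 0.163 and 0.0932). Meis2 was also lost without adult replicate 1 (-0.62, adjusted p = 0.118) or adult replicate 2 (-0.70, adjusted p = 0.0793). Macrophage markers summed to 1.43 to 2.28 FPKM in explants at 0 h and 136 to 183 FPKM in ventricle, and fibroblast markers to 11.2 to 17.8 FPKM in explants and 382 to 399 FPKM in ventricle.

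**Figure D5:**
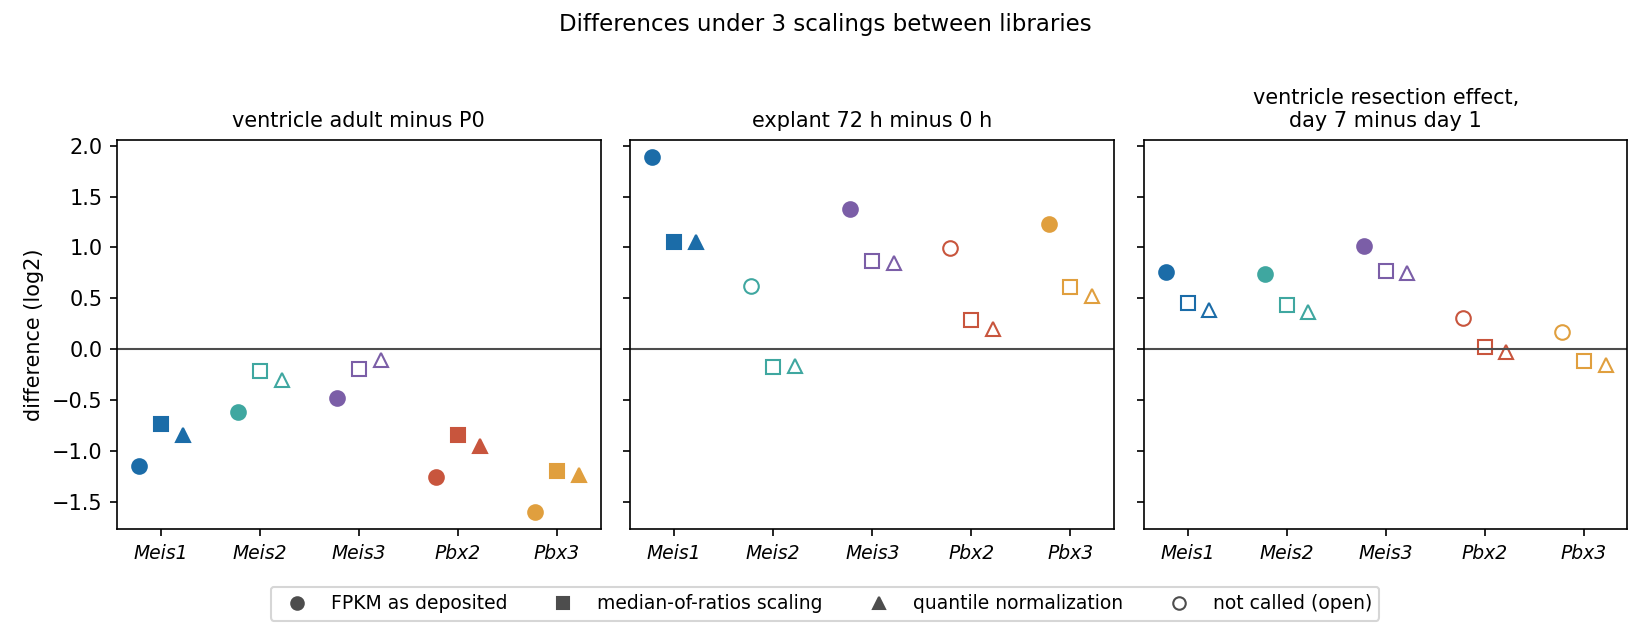
Log2 differences (y axis) of the 5 members for adult minus P0 ventricle, explants at 72 h minus 0 h, and the ventricle resection effect at day 7 minus day 1, under 3 scalings between libraries (symbols); filled symbols were called. Meis1, Pbx2 and Pbx3 were filled under all 3 scalings in adults, Meis1 alone in explants (1.89, 1.06 and 1.05), and no gene in the difference of resection effects.

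Meis1 and Meis3 were called higher in explants as deposited, although Meis3 was called under neither other scaling. Pbx3 was also called at 72 h as deposited, but no promoter of it was found in the source used. The promoters of Meis1 and Meis3 are shown from RefSeq on GRCm38.p6, from 250 bases before to 50 bases after the gene start. They lie at chr11:19018920-19019219 (minus strand) for Meis1 and chr7:16175145-16175444 (plus strand) for Meis3. Capitals mark a match to 1 of 4 motifs searched on both strands, namely the Meis core TGACAG, the CCAAT box, the TATA box TATAAA and the GC box GGGCGG.
Meis1: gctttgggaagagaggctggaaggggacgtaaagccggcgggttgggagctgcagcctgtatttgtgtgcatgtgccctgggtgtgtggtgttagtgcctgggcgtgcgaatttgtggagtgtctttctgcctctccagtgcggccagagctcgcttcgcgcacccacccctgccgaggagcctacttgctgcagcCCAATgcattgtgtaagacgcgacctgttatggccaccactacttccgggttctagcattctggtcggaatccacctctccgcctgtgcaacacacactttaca
Meis3: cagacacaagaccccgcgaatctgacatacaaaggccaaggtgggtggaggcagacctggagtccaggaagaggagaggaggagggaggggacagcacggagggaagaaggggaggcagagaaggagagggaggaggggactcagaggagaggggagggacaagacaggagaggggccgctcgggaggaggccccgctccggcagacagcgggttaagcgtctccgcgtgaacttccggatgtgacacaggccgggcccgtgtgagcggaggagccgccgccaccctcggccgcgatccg
The Meis1 window held 1 CCAAT match and none of the other 3 motifs, and the Meis3 window held no match to any. Of 32851 promoters of the same length, 37.4% held CCAAT, 35.7% GGGCGG, 19.2% TGACAG and 13.6% TATAAA. The windows were 58.3% (Meis1) and 66.7% (Meis3) G or C, against a median of 52.7%. A lack of a match says only that these letters are not in this window.

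Shares of the summed level within the Meis and Pbx groups are given as group means, with no test. Meis1 gave 50.3% of the summed FPKM of the 3 Meis genes at P0 in ventricle, 52.9% at P4, 56.4% at P7 and 40.7% in adults, where Meis2 was ahead with 52.9%. In explants Meis1 gave 50.3% at 0 h, 70.2% at 24 h, 70.8% at 48 h and 67.5% at 72 h. Meis3 gave 0.909% of the sum in ventricle 1 day after resection and 2.45% after sham, and the libraries did not overlap (0.370% to 1.45% after resection, 2.101% to 2.801% after sham). In isolated cells at day 7 it gave 9.48% after resection and 6.74% after sham, where libraries overlapped (7.06% to 11.9% after resection, 4.92% to 9.98% after sham). Of Pbx2 and Pbx3 together, Pbx2 gave 62.5% at P0, 56.3% at P4, 60.6% at P7 and 70.6% in adult ventricle, with the P0 and P7 libraries overlapping and the adult ones above all younger. These shares compare members within a library and are not moved by 1 scaling factor per library.

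Across the 16 group means of log2(FPKM + 1), Pbx2 and Pbx3 followed each other (Pearson r = 0.89), and Meis2 was closer to Pbx2 (0.76) than to Meis1 (0.45). Meis1 and Meis3 stood at 0.62, and Meis3 with Pbx3 at -0.10. The points share preparations and scaling, and r is given as a description. Among 11878 genes searched, the patterns most like Meis1 were those of Tex10 (0.952), Slc7a6 (0.951), Tbc1d25 and Nr2c2ap (0.946 each) and Senp6 (0.941). For Meis2 they were Fkbp2 and Parp1 (0.912 each), Flot2 (0.894), Fto (0.888) and Ncoa1 (0.886), and for Meis3 Dda1 (0.935), Ltbr (0.929), Atf6b (0.919) and Wdr4 (0.910). Pbx2 was most like Hnrnpl (0.966), Patz1 (0.962), Dhcr7 and Nadsyn1 (0.948 each) and Eif4ebp2 (0.947). Pbx3 was most like Fam115a (0.981), the cell-cycle kinase gene Cdk2 (0.973), Rfx3 (0.971) and Rev3l (0.97).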

How the data were processed

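RNA was extracted with Trizol, and libraries were made by an earlier protocol or a TruSeq kit and sequenced on a GA-2 or Hi-Seq instrument, per the labels' protocols, which do not say which library had which. The authors deposited a table of FPKM values per gene, and the submitters' processing notes name Bowtie 0.12.7, TopHat 1.3.2, Cufflinks 1.2.1, Cuffdiff and the mm9 build. The gene annotation is not given in the sources used here.

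The members and the gene lists were chosen with earlier results of these data known. Where a symbol had several rows, the row with the highest mean was used. log2(FPKM + 1) was fitted with limma 3.58.1 in R 4.3.3, separately for ventricle, isolated cells and explants (14306, 13143 and 12246 genes tested with at least 1 FPKM in at least 2 libraries), and over all 36 libraries for comparisons between preparations (14962 genes). P-values were adjusted by Benjamini-Hochberg over all genes tested. Tests were two-sided, and the spread between libraries followed a trend with level. The fits were also run on simulated data with independent noise, no pairing and no shift between libraries. Those runs cannot speak to the effect of scaling or pairing. Named genes are the 5 members, the called genes of each list with the largest changes (at most 3 in each direction per comparison) and the 5 genes most like each member, of which some are not reported here. Sequences, motifs and figures were handled with Python 3.11.15, NumPy 2.4.6, pandas 2.3.3 and Matplotlib 3.10.9.

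Whether replicate numbers pair libraries was checked by the correlation of same-numbered deviations from group means. It was 0.385 to 0.617 over 12 explant pairs, so the numbers pair the explants. Where a group has 2 libraries their deviations mirror each other, so each correlation appears for both replicate numbers. In isolated cells the correlation ranged from -0.58 to 0.421 (median 0.0122) and in ventricle from -0.135 to 0.182 (median 0.0117), with no consistent pairing. More gene rows reached 1 FPKM in isolated replicate 3 than in replicates 1 and 2 at P0, P4 and after sham. After resection replicate 2 had the most. The alternatives were a pseudocount of 0.1, no filter, 2 other scalings, the replicate block, summed rows, the compared groups alone, a single fit and each library left out. Actn2, Ttn, Pecam1, Col1a2 and Adgre1 of the marker lists were not analysed here.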

Additional observations from a re-analysis of the deposited data

Results flagged for a closer look

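The resection effect in ventricle differed between the 2 times for 3 members by a direct test, which is why they are listed. The day 7 difference from sham minus the day 1 difference was 1.02 for Meis3, 0.76 for Meis1 and 0.74 for Meis2 on the log2(FPKM + 1) scale, and each passed in limma after Benjamini-Hochberg adjustment over all genes. The median of all tested genes was 0.27 in the same contrast, and 5.69% of them were called higher. None of the 3 passed after median-of-ratios scaling or quantile normalization. Cdkn1a (1.69), Ppp3ca (0.96) and Hoxa5 (1.81) were called in the same contrast, where both other scalings left 0 of 7 Meis1-linked genes called and 1 of 2 anterior Hox genes. Cdkn1a and Ppp3ca had their highest ventricle means in day 1 sham (32.7 and 44.8 FPKM), a group that enters this contrast. Lung epithelial markers were called higher there in 3 of 4 and macrophage markers in 2 of 5, and their part was not tested. Groups had 2 or 3 libraries, so single outlying samples were not tested.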

How the results depend on the processing

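The table of 5 members in 16 comparisons gave 80 results, of which 29 were called. Both other scalings set the median of all genes nearer to 0, and changed the most: with median-of-ratios scaling 17 of 80 turned sign and 16 others lost their call, and with quantile normalization 17 turned and 18 others lost it. The number of members called became 3 in adults against P0, 0 at day 1, 0, 1 and 1 in explants at 24, 48 and 72 h, 0 for isolated against ventricle P0, 0 for explants at 0 h against adults and 0 for the effect at day 7 minus day 1 under both, and 3 (median of ratios) or 2 (quantile) for isolated against ventricle sham. Signs turned to these log2 values with median-of-ratios and quantile scaling. Meis2 had -0.0597 and -0.0836 in isolated P4 against P0, -0.12 and -0.0813 in explants at 24 h, -0.33 and -0.28 at 48 h, -0.17 and -0.17 at 72 h, and 0.26 and 0.0259 in isolated against ventricle sham. Pbx2 had -0.0220 and -0.0481 at day 7, -0.18 and -0.16 in explants at 24 h, -0.17 and -0.14 at 48 h, and 0.68 and 0.47 in isolated against ventricle sham. Pbx3 had 0.0838 and 0.09235 in isolated against ventricle P0, 0.62 and 0.38 in isolated against ventricle sham, and -0.12 and -0.15 for the effect at day 7 minus day 1. Meis1 had 0.54 and 0.50 in isolated against ventricle P0 and 0.36 and 0.32 in explants at 0 h against adults. Under median-of-ratios scaling alone, Meis2 (0.0301) and Meis3 (0.0508) turned in isolated against ventricle P0 and Meis1 (0.0759) in isolated against ventricle sham. Under quantile normalization alone, Meis3 turned in isolated against ventricle P0 (0.14) and in explants at 0 h against adults (0.14), and Pbx2 for the effect at day 7 minus day 1 (-0.0239).

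With the replicate block the number called was 1 at day 1, 2 and 5 in explants at 24 h and 72 h, 3 at 48 h and 2 in isolated against ventricle sham, and no sign turned. The same numbers showed no consistent pairing of isolated or ventricle libraries, so only the explant values are of a paired fit. A pseudocount of 0.1 gave 2 at 24 h and 3 at 48 h. With no filter 0 were called at day 1, 0, 1 and 1 in explants at 24, 48 and 72 h, and 0 for the effect. The single fit gave 0 at P7 against P0, 0 at day 1, 1 in isolated cells at day 7, 2, 3 and 5 in explants at 24, 48 and 72 h, and 0 for the effect. With the compared groups alone 0 were called at day 1, 1 in explants at 0 h against adults, 0 for the effect and 2 at P7. Summed rows changed none of 80. The shares of all genes called under the block, the pseudocount, no filter, the single fit and the compared groups alone are not given here. These counts of members cannot be set against them.

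Leaving out 1 library gave 0 members at 24 h in each of 4 cases, 1 to 2 at 48 h and 2 to 4 at 72 h, 1 to 3 at P7, 0 to 1 at day 1, 0 to 2 in isolated cells at day 7, 0 to 3 for the effect, 1 to 3 for isolated against ventricle P0, 0 to 2 for isolated against ventricle sham and 1 to 3 for explants at 0 h against adults. Over 400 such refits, 18 signs turned, of members that were not called. At 24 h Meis2 ranged from -0.0194 to 0.76 and Pbx2 from -0.26 to 0.75, and at 48 h Meis2 from -0.0607 to 0.72 and Pbx2 from -0.0892 to 0.92, each lowest without 0 h replicate 2. In isolated P4 against P0, Meis2 ranged from -0.0425 to 0.0947, Pbx2 from -0.22 to 0.0329 and Pbx3 from -0.14 to 0.0436. Pbx3 ranged from -0.12 to 0.0203 in isolated cells at day 7, from -0.0180 to 0.32 at day 1, from -0.00412 to 0.33 for the effect and from -0.13 to 0.0175 in isolated against ventricle sham, where Pbx2 ranged from -0.17 to 0.0422. The cause of these changes was not tested.

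Depth per library is unknown, so counting error could not be given, and Meis3, near 1 FPKM, is the member most exposed to the pseudocount. Groups of 2 libraries limit every comparison of ventricle and explants.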
